A study of Mus musculus with 12 samples.

Results

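The regions described here are m6A peaks that sit on the most abundant RNA of the mouse hippocampus. N6-methyladenosine (m6A) is a methyl group on adenosines inside messenger RNA. The members were chosen by their control tags, that is, by the number of sequenced fragments that the control of each peak list placed under the peak. Which input library that control was is not stated. Peaks of the 4 lists that shared at least 1 bp were merged into regions, and a member had to be called in all 4 lists and to hold, in every list, a peak within the top 5 percent by control tags. This gave 619 of 70674 regions (0.876%), or 6.07% of the 10203 regions called in all 4 lists.

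The data were peak lists of m6A-immunoprecipitated (IP) poly(A)+ RNA from hippocampi of wild-type male C57BL/6 mice, with 2 libraries from mice aged 2 weeks and 2 from mice aged 6 weeks. Each list holds the control tags of its peaks. Both ages carry the wild-type genotype, and the labels name no treatment of the mice. The labels number the libraries of an age as biological replicates and name no animals, pools or litters, so the tests measure the spread between these samples, which may in part be technical. The 8 other samples of the series, among them Fto knockout and wild-type adults of 8 to 12 weeks, were not analysed here. The lists give positions in the mouse build mm9 without gene names or sequence, so regions are named by position, and the labelled tissue was not checked against marker genes.

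In cells, a methyltransferase complex with METTL3 and METTL14 places m6A, the demethylases FTO and ALKBH5 can remove it, and reader proteins of the YTH family bind it and act on the decay and translation of the RNA. Many sites lie near stop codons and in the last exon, and brain RNA is rich in them. An IP experiment counts fragments held by an antibody, and the ratio of IP to control tags, the fold over control, separates methylation from the amount of RNA. It does not give the share of molecules that carry the mark. On abundant RNA both numbers of the ratio are large, so counting error is small there. Replicates of the members differed by far more than counting error. Chi-squared per degree of freedom was 86.6 and 108 for their IP tags at 2 and 6 weeks, and 12.8 and 12.7 for their control tags.

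Peaks are 100 bp wide, which holds for all 2976 peaks of the members, so tag numbers of different peaks compare per length. Control tags measure RNA at the peak and not over a whole transcript. An abundant RNA without a peak in every list has no region here. Written so that 10 M stands for 10000000 tags, the IP libraries held 23.4 and 23.0 M at 2 weeks and 16.1 and 16.5 M at 6 weeks, and the control libraries 29.3, 16.8, 15.8 and 11.7 M in the same order, if the deposited scaling was to 10 M tags. Every 6-week library was shallower than every 2-week library of its kind, so depth and age cannot be told apart, and 6-week replicate 2 had the smallest part of its IP tags in peaks, 16.0% against 21.7% to 24.4% in the others.

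To be in the top 5 percent, a peak needed at least 112 and 72 control tags in 2-week replicates 1 and 2, and at least 54 and 35 in 6-week replicates 1 and 2. The median member had 238, 173, 106 and 77 control tags in these libraries. Per 10 M tags the medians were 81.2 and 103 at 2 weeks and 67.1 and 65.7 at 6 weeks, against 8.87, 9.51, 6.33 and 5.98 in the 9584 other regions called in all 4 lists. The level of 100 control tags per 10 M was reached in every library by 104 members. These values are what chose the members and are given as a description.

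The members held few of the peaks and many of the tags. They took 1.86% and 1.88% of the peaks at 2 weeks, 2.21% and 2.13% of those at 6 weeks, and 19.5% to 22.4% of all control tags under peaks. Of the IP tags under peaks they held 22.1% and 22.6% at 2 weeks, and 23.6% and 18.5% at 6 weeks. Of the peaks in the top 5 percent by control tags, 35.0% to 41.0% lay in members, and 34.0% to 39.0% lay in regions that were missing from at least 1 list.

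**Figure D1:**
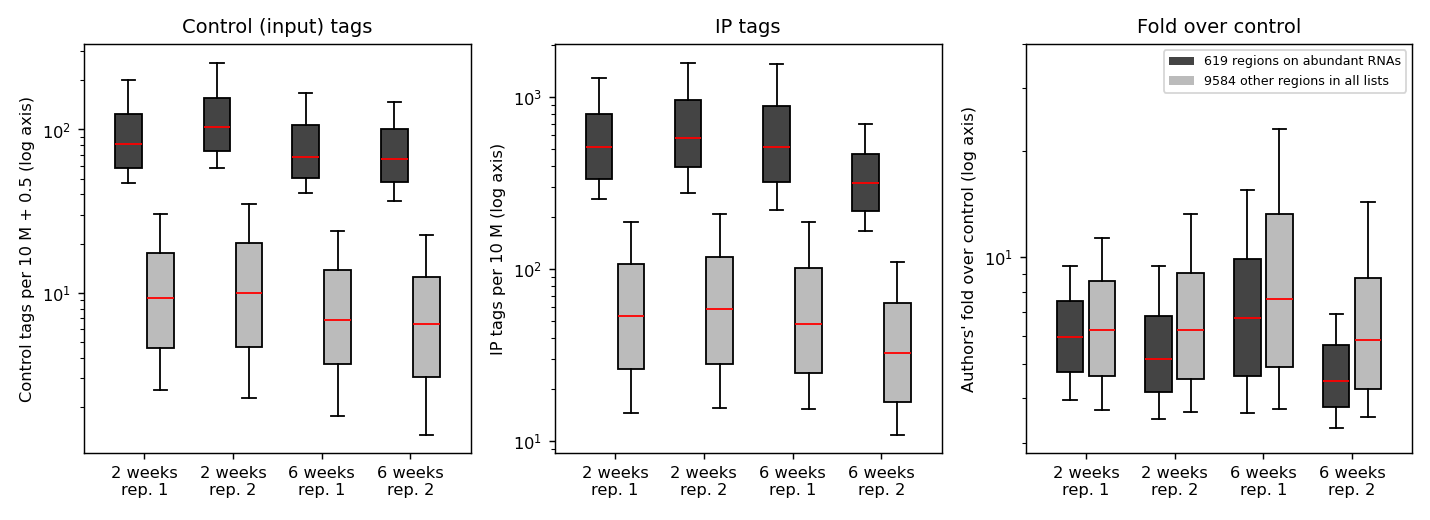
Control tags per 10 M, IP tags per 10 M and the authors' fold over control (log axes) in the 4 libraries, for the 619 members (dark) and the 9584 other regions called in all lists (light). Boxes span the quartiles, red lines are medians and whiskers reach the 10th and 90th percentiles over regions. Members lie far higher in tags, and their median fold lies at 4.48 to 6.75.

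IP tags were not part of the choice, although a peak with many control tags and the 3-fold minimum of the lists must have many IP tags. Members had a median of 512 and 581 IP tags per 10 M at 2 weeks and 510.3 and 316 at 6 weeks, against 53.8, 58.4, 47.7 and 32.7 in the other regions. In the 4 lists, 588, 589, 548 and 598 of the 619 members were also among the top 5 percent of peaks by IP tags.

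The fold over control of the members, as the authors' lists give it, was moderate. Its median was 5.95 and 5.17 at 2 weeks and 6.75 and 4.48 at 6 weeks, and 6.25, 6.24, 7.64 and 5.84 in the other regions. High folds were scarcer in members: 7.11% and 7.92% at 2 weeks and 24.7% and 0.323% at 6 weeks reached 10-fold, against 16.2%, 19.9%, 36.6% and 19.5% of the others. The control is the denominator of this ratio and also chose the members, and low controls scatter it more in the other regions, so the difference is a description. At 6-fold or more in every library stood 72 of the 619 members (11.6%) and 17.5% of the others.

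Order among the libraries was similar in many members. The highest of the 4 folds was that of 6-week replicate 1 in 357 members (57.7%), and the lowest was that of 6-week replicate 2 in 356 (57.5%). In the other regions the same positions were taken in 43.9% and 35.2%. The 6-week replicates differed within a member by a median of 0.60 in log2 fold, against 0.13 between the 2-week replicates, so by median fold the 2-week libraries lay between the 6-week ones.

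The 12 members with the highest mean control tags lie on chromosomes 19, 18, 5, 11, 15, 2, 13, 17 and 10. The first, chr19:5801183-5801558, had 1439 and 238 control tags per 10 M at 2 weeks and 4189 and 329 at 6 weeks. Both replicate 1 libraries are high there and both replicate 2 libraries low, so the ages overlap. The peaks that give these values are not the same piece of RNA: they start at 5801183 and 5801192 in the replicate 1 libraries, with folds of 3.09 and 3.06, and at 5801372 and 5801275 in the replicate 2 libraries, with folds of 9.23 and 11.98. In the replicate 2 lists no peak of the region starts before 5801275.

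The next member by control tags, chr18:61144877-61145009, had 735 and 1216 control tags per 10 M at 2 weeks and 1034 and 912 at 6 weeks, with peak starts within 32 bp. The ages overlap, and the 4 folds were 5.63, 5.16, 3.11 and 4.53. A second member lies beside it, from 61145160 to 61145268, with 640 and 557 control tags per 10 M at 2 weeks and 567 and 271 at 6 weeks. Its folds were 4.11, 4.68, 4.19 and 7.83, the highest of them in the library with the fewest control tags.

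Chromosome 5 also holds a pair among the 12. From 136387183 to 136387329 the control tags per 10 M were 954 and 1564 at 2 weeks and 499 and 696 at 6 weeks, and from 136386892 to 136387004 they were 874 and 1195, then 365 and 568. In both members the 6-week controls lie below both 2-week controls. Folds lay between 4.65 and 5.77 in the second of them and ranged from 3.08 to 5.47 in the first.

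A higher fold was found at chr11:94853974-94854107, with 687, 1026, 860 and 821 control tags per 10 M in the 4 libraries. It held 6076 and 5631 IP tags per 10 M at 2 weeks and 14527 and 3819 at 6 weeks, and folds of 8.84, 5.49, 16.9 and 4.65. The 6-week replicates lie on either side of the 2-week ones in IP tags while the controls stay close. The region chr10:126517415-126517539 shows the same order, with folds of 8.07, 5.56, 15.66 and 3.97, and so does chr15:98635319-98635438, with 6.02, 4.66, 9.21 and 3.57.

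In the 4 libraries the lowest fold was 3.47 at chr2:158211054-158211185, 3.11 at chr2:102630070-102630251, 3.39 at chr13:34166308-34166408 and 3.70 at chr17:57220129-57220271. With the members on chromosomes 19, 18, 5 and 15 given above, 8 of the 12 had a lowest fold between 3.06 and 3.70, near the 3-fold minimum of the lists. On chromosome 13 the control tags per 10 M were 883 and 778 at 2 weeks and 376 and 108 at 6 weeks, with the same printed peak start in all 4 libraries. The folds there were 4.61, 3.39, 4.93 and 9.33, and IP tags per 10 M were 4067, 2639, 1853 and 1004.

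**Figure D2:**
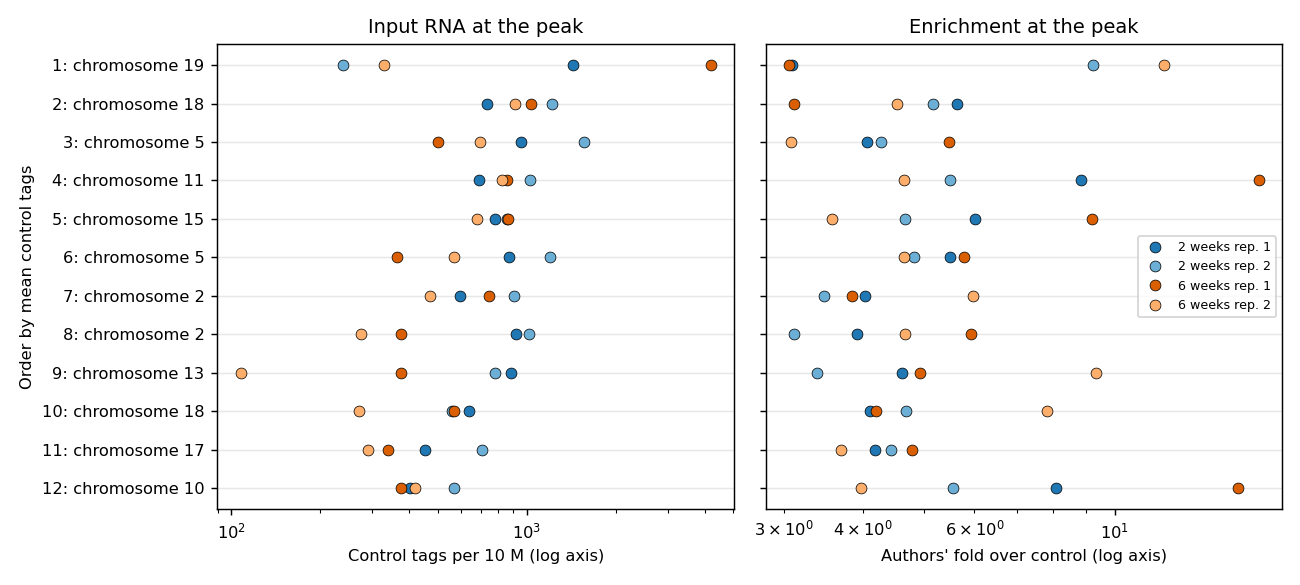
Control tags per 10 M (left) and the authors' fold over control (right), both on log axes, in each of the 4 libraries for the 12 members with the highest mean control tags, ordered from the top. Points are single libraries. On chromosome 19, at the top, the libraries spread from 238 to 4189 control tags per 10 M, while on chromosome 15 they lie between 680 and 866.

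The members with the highest median fold had lower control tags than these. They were chr10:13869305-13869433 (folds of 12.42, 18.94, 33.3 and 9.09 in the 4 libraries), chr7:151606845-151606967 (14.61, 16.46, 42.34 and 9.37), chr7:63486361-63486480 (11.68, 18.35, 37.38 and 9.3), chr17:90436032-90436162 (10.13, 18.09, 34.93 and 6.81) and chr19:23239901-23240175 (12.17, 15.59, 14.91 and 9.68). In each of these, 6-week replicate 2 gave the lowest fold. The region on chromosome 10 had 1310 and 2070.5 IP tags per 10 M at 2 weeks and 1878 and 466 at 6 weeks, on 105 and 109 control tags per 10 M, then 56.4 and 51.2.

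At the other end stood chr11:120440476-120440589, with folds of 3.23, 3.15, 3.22 and 3.03 and a peak start within 13 bp. The region chr13:69877638-69877749 was similar, with 3.32, 3.28, 3.86 and 3.36. Another 3 had a median under 3.3: chr13:60862400-60862567, chr19:9001511-9001641 and chr11:97361697-97361813. On chromosome 19, 6-week replicate 1 gave 7.27 and the other 3 libraries 3.09 to 3.23.

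The limit of the choice separates regions that are nearly alike. Just inside lay chr6:124811427-124811549, chr7:26029599-26029748 and chr7:138054521-138054637, each with 35 control tags in 6-week replicate 2, at rank 4.96% of that list. Just outside lay chr6:100816423-100816532, chr9:106276107-106276212 and chrX:96663291-96663481, each with 53 control tags in 6-week replicate 1, at rank 5.02%. Of the 10203 regions called in all lists, 238 were within the limit in 3 lists, 352 in 2 and 422 in 1.

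Some of the regions within the limit in 2 lists were within it at 1 age only, at any distance from it at the other. Both 2-week libraries and neither 6-week library were within the limit at 165 regions, and the reverse held at 65. An example abundant at 2 weeks is chr9:21820602-21820725, with 72.0 and 74.9 control tags per 10 M at 2 weeks and 17.1 and 5.98 at 6 weeks. An example abundant at 6 weeks is chr2:156347838-156347963, with 3.41 and 10.1 at 2 weeks and 38.0 and 33.3 at 6 weeks. These regions were picked by this difference and carry no test here.

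Peak positions repeated more closely in members than in other regions, a property that the rule did not use. The 4 peaks of a member started within a median range of 27 bp, and those of another region within 44 bp. In 248 members (40.1%) all starts lay within 20 bp, against 21.9% of the others, and in 18 members all 4 starts were the same. Each list had exactly 1 peak in 390 members (63.0%), against 43.7% of the others. Between libraries of the same age the median distance of starts was 7 bp at 2 weeks and 10 bp at 6 weeks, and between ages it was 7 to 11 bp. In 28 members the starts differed by more than 100 bp. Members also have more tags under each peak, and the part of tag number in this difference was not tested.

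**Figure D3:**
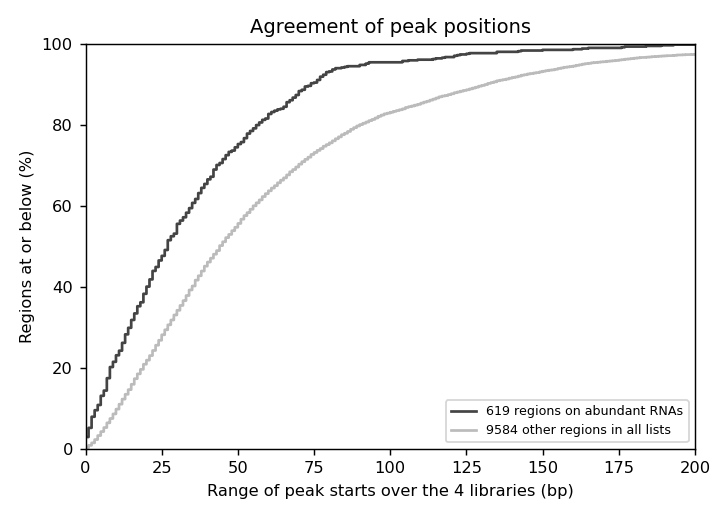
Range of the peak starts over the 4 libraries (x axis, bp) against the cumulative percentage of regions (y axis), for the members (dark line) and the other regions called in all lists (light line). At 20 bp the lines stand at 40.1% and 21.9%.

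Values of the same member were alike in different libraries, within limits. Across the 619 members the log2 control tags of the 2-week replicates correlated with a Pearson r of 0.905 and those of the 6-week replicates with 0.829; between ages r was 0.721 to 0.791. For the log2 fold r was 0.694 between the 2-week replicates and 0.408 between the 6-week replicates, and 0.492 to 0.722 between ages. In the other regions the fold correlated less, with 0.360 and 0.207 within the ages. Their log2 control tags had a Pearson r of 0.870 and 0.772 within the ages. By Spearman rho their control tags stood at 0.891 and 0.804, against 0.873 and 0.764 in members. Log2 IP tags correlated more in the other regions, with a Pearson r of 0.926 and 0.822 within the ages, against 0.892 and 0.786 in members. Members are not independent replicates, and the values share libraries and the 3-fold minimum, so these are descriptions.

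Between replicates, the difference of log2 fold had an SD over members of 0.40 at 2 weeks and 0.73 at 6 weeks. In the other regions, which hold fewer tags, it was 0.81 and 1.18. For log2 control tags, which chose the members, the SD was 0.38 and 0.50 in members and 0.73 and 1.01 in the others. For log2 IP tags it was 0.45 and 0.68 in members and 0.54 and 0.78 in the others. The source of these differences was not tested.

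Members were found on every autosome and on X, and none on Y, which had 4 regions called in all lists, or in mitochondrial RNA. Chromosome 2 held 73, chromosome 11 held 64 and chromosome 7 held 52. As a share of the regions called in all lists, members were 9.22% on chromosome 11, 8.64% on 19 and 8.61% on 2, and 3.09% on chromosome 4 and 3.40% on 18.

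Many members lie in groups. With members less than 10 kb apart joined, they formed 452 loci, of which 108 held more than 1 member and together 275 of the 619 (44.4%). The largest was chr2:121126718-121132743, 6026 bp with 7 members, and all 7 regions called in all lists there were members. The region chr1:179377303-179380226 held 6 members, as did chr9:108001607-108013312. Members of a locus may lie on the same RNA and are then not separate measurements of it.

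On chromosome 2 the 7 members had median folds between 4.26 and 7.63. Their log2 differences of control tags between 6 and 2 weeks ran from -1.02 to 0.17. Only 1 of the 7, from 121130414 to 121130571, was more than 0.3 below zero, with 120 and 182 control tags per 10 M at 2 weeks and 58.9 and 89.7 at 6 weeks.

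On chromosome 1 all 6 members had lower control tags in both 6-week libraries, with log2 differences from -0.76 to -1.67. Their IP tags differed less evenly, from -0.19 to -1.92. The fold of the member from 179378041 to 179378195 was 9.15, 9.75, 22.19 and 5.72, and that of its neighbour from 179377636 to 179377812 was 4.33, 3.05, 5.04 and 5.79. The first of these neighbours has the higher fold in all libraries but 6-week replicate 2. All 5 members on chr9:56467034-56468945 likewise had lower controls in both 6-week libraries, with log2 differences from -0.47 to -1.12.

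Within the 35 loci of 3 or more members, the median SD of the control difference between ages was 0.27, against 0.50 over all members. For the IP difference it was 0.39 against 0.57, and for the log2 of the median fold 0.39 against 0.47. An SD over a few members tends to come out low, and the rule limits control tags at both ages, so these values do not show that members of a locus are more alike.

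Between the ages, control tags per 10 M were lower in both 6-week libraries than in both 2-week libraries in 339 of 619 members (54.8%), and higher in 25 (4.04%). Over all 10203 regions called in all lists the shares were 46.7% and 7.09%. With TMM scaling in place of library totals, which moved the median of all these regions from -0.50 to -0.02 on the log2 scale, 133 members (21.5%) were lower and 170 (27.5%) higher, against 24.3% and 20.4% of all regions. The balance of higher and lower members is therefore set by the scaling. Control tags chose the members, and no test of them is given. In bulk tissue, fewer cells of a type and less RNA per cell cannot be told apart.

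The largest control difference toward 6 weeks, among members whose ages do not overlap, was at chr9:111294360-111294466, with 59.7 and 57.0 control tags per 10 M at 2 weeks and 238 and 120 at 6 weeks, a log2 difference of 1.61. Its neighbour from 111294753 to 111294854 had 64.1 and 89.7, then 155 and 103. The region chr13:54482234-54482510 followed with 109 and 138, then 289 and 453 (1.58), where the peak starts lay up to 176 bp apart. Differences at chromosome 13 from 60862400 (0.95), chromosome 8 from 15029149 (0.81) and chromosome 2 from 130462188 (0.80) were smaller.

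Toward 2 weeks the largest was at chr11:51935504-51935625, with 150 and 156 control tags per 10 M at 2 weeks and 36.7 and 37.6 at 6 weeks, a log2 difference of -2.03. Replicates were nearly equal there. The region chr9:95305269-95305504 had 153 and 279, then 57.0 and 48.7 (-2.02), with starts up to 135 bp apart. The others were chr13:34220235-34220351 (-1.84), chr11:4839468-4839649 (-1.80) and chr7:138128651-138128757 (-1.79).

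IP tags per 10 M were lower in both 6-week libraries in 263 members (42.5%) and higher in both in 16 (2.58%), against 42.2% and 6.62% of all regions. With TMM scaling, chosen for this count after the data were seen, 148 members (23.9%) were lower and 127 (20.5%) higher, against 24.8% and 22.4% of all regions, so this balance too is set by the scaling. Per 10 M, control and IP tags were both lower without overlap in 218 members, both higher in 8, and opposite in 1. Under TMM these numbers were 89, 83 and 6. No joint count over all regions is given, so nothing particular to the members is read from either set of numbers. The age differences of control and IP tags correlated over members with a Pearson r of 0.782 and a Spearman rho of 0.760, a description only, since both columns come from the same peaks.

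**Figure D4:**
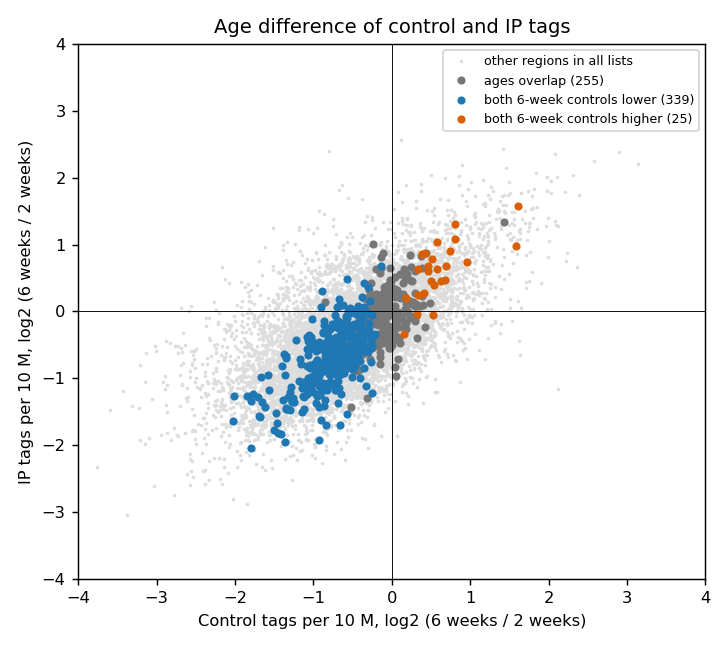
Log2 difference between 6 and 2 weeks of control tags (x axis) and of IP tags (y axis), both per 10 M, for the members, coloured by whether their controls overlap between the ages, with the other regions called in all lists in pale grey. The members lie along the diagonal, 339 of them with both 6-week controls lower and 25 with both higher.

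IP tags were tested between the ages over all 10203 regions with edgeR's quasi-likelihood test, TMM scaling and Benjamini-Hochberg adjustment over all of them. The rule did not use IP tags directly. High control tags and the 3-fold minimum in every list still keep a member's IP tags high at both ages. Shares of members and of all regions are therefore given with nothing read from their difference. No member and no other region passed an adjusted p of 0.05, so both shares are 0%. At an unadjusted p under 0.05 stood 56 members (9.05%), against 16.1% of all regions. The median log2 change was 0.00 in members and 0.01 over all regions, and its median size 0.36 and 0.43. DESeq2 called 5 members (0.808%; 1.3% of all regions), 3 of them higher at 6 weeks, and limma called 0%. The smallest p of an exact test of 2 libraries against 2 would be 0.333.

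The member with the smallest p was chr9:111294360-111294466, named above for its control tags. It held 250.5 and 231 IP tags per 10 M at 2 weeks and 784 and 660 at 6 weeks. Both 6-week libraries were higher, by a log2 of 2.01 ± 0.42 (SE; edgeR adjusted p = 0.0799). Its fold was 4.2, 4.05, 3.29 and 5.48, and the log2 change of the IP to control ratio was -0.03 ± 0.44. Its control tags had differed by a log2 of 1.61 per 10 M, a scale on which the median of all regions is -0.50. DESeq2 gave an adjusted p of 0.000498 for its IP tags, and the fit of regions with 1 peak in each list called only this member (1 of 390, 0.256%, against 1.09% of the 4577 regions in that fit; edgeR adjusted p = 0.0313).

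Toward higher IP tags at 6 weeks, none of the others passed in edgeR: chr8:15029149-15029309 had a log2 change of 1.59 ± 0.49, chr13:54482234-54482510 had 1.44 ± 0.47, chr2:130462188-130462288 had 1.44 ± 0.46 and chr10:126635486-126635616 had 1.26 ± 0.40 (SE). On chromosome 8 the IP tags per 10 M were 618 and 551 at 2 weeks and 2193 and 698 at 6 weeks, so that 6-week replicate 1 stands far above the other 3 libraries, and without it the change was 1.01. DESeq2 called the members on chromosomes 8 and 13, with adjusted p of 0.0395 and 0.0394.

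Toward lower IP tags, also without passing in edgeR, the smallest p belonged to chr11:4839468-4839649, with 373 and 595 IP tags per 10 M at 2 weeks and 120 and 115 at 6 weeks (-1.58 ± 0.41, SE; edgeR adjusted p = 0.110). The ages do not overlap there, and the folds stayed between 3.15 and 3.9. The region chr7:17502134-17502244 had 2493 and 2539, then 656 and 640.2, with replicates nearly equal at each age (-1.51 ± 0.48); DESeq2 called both, with adjusted p of 0.0374 and 0.0343. The change was -1.40 ± 0.41 at chr9:58045037-58045233 and -1.26 ± 0.39 at chr6:55628829-55629046, but -0.89 and -0.30 with tags summed over all peaks of the region. At chr1:179377303-179377568 the change was -1.45 ± 0.46, the peaks started 165 bp apart, and with summed tags it was 0.11.

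Single libraries decide how many members pass. Without 6-week replicate 2 edgeR called 38 members higher and 31 lower at 6 weeks, 69 in all (11.1%, against 13.9% of all regions), and without 6-week replicate 1 it called 9 and 5 (2.26% against 4.38%). Without either 2-week replicate it called 0 members. The rule keeps the IP tags of members high at both ages, so nothing is read from these shares against those of all regions. The library left alone at its age is assumed to vary like the others. Without a 6-week library the spread comes from the 2-week replicates alone. Over members, the SD of the log2 IP difference between replicates was 0.45 at 2 weeks and 0.68 at 6 weeks. Calls made without a 6-week library may therefore rest on too small a spread.

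The last comparison was of enrichment between the ages, taken as IP tags over control tags. The test was the interaction of fraction and age in edgeR with a term for each sample, whose control was taken from its own list. Control tags enter this ratio, and the rule asked for high control tags at both ages, which leaves out regions abundant at 1 age only. Shares of members and of all regions are therefore printed side by side with nothing read from their difference. The fit called 0% of members and 0% of all regions, with a smallest adjusted p of 0.999 among members. At an unadjusted p under 0.05 stood 9 members (1.45%) and 3.71% of all regions. DESeq2 and limma also called 0% of members and 0% of all regions. In DESeq2 7 members (1.13%) had an unadjusted p below 0.05, against 85 of the 10203 regions. In limma it was 8 members (1.29%), against 351 of the 10203. The median log2 change in edgeR was -0.05 in members and 0.04 over all regions. TMM centres the regions, so a change shared by most of them would not be seen. Every region tested was called at 3-fold or more in all 4 lists. Regions that lost their enrichment at 1 age therefore could not enter the fit.

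The median SE of the log2 change in enrichment was 0.43 in members and 0.57 over all regions. Members were chosen by control tags, which enter this ratio, and the source of the difference was not tested. The log2 changes of members ran from -1.13 to 0.85. The SE of IP tags alone was 0.42 in both sets.

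Toward lower enrichment at 6 weeks the smallest p belonged to chr11:102979133-102979407, with folds of 9.56 and 6.84 at 2 weeks and 4.49 and 3.29 at 6 weeks and a log2 change of -1.13 ± 0.43 (SE, not passed). Its control tags per 10 M were 43.3 and 80.2, then 58.9 and 69.2, so the ages overlap in RNA and not in fold, but with tags summed over all peaks of the region the change was -0.44. The region chr1:134835275-134835399 had folds of 10.07 and 10.43, then 4.67 and 6.06 (-1.02 ± 0.43), and chr6:55628829-55629046 had 6.15 and 7.39, then 3.30 and 3.29 (-1.10 ± 0.44). The remaining ones were chr1:179377303-179377568 (-1.04 ± 0.43) and chr9:40097059-40097355 (-1.03 ± 0.43), whose peak starts lay 165 and 193 bp apart. With summed tags the change was -0.31 at chr1:134835275-134835399, -0.71 at chr1:179377303-179377568, -0.61 at chr9:40097059-40097355 and -1.16 at chr6:55628829-55629046.

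Toward higher enrichment the changes were smaller. The region chr7:17533908-17534025 had folds of 5.81 and 3.39 at 2 weeks and 8.37 and 8.38 at 6 weeks, a log2 change of 0.85 ± 0.42 (SE, not passed). The next were chrX:147080992-147081092 (0.73 ± 0.45), chr3:106917408-106917520 (0.71 ± 0.44), chr1:179378618-179378746 (0.71 ± 0.42) and chr13:34166308-34166408 (0.70 ± 0.43), the last of them also among the 12 with the most control tags. Without 6-week replicate 2 the fit called 10 members (1.62%, against 0.559% of all regions), 7 higher and 3 lower, among them X from 147080992 (1.38; edgeR adjusted p = 0.0424) and, lower, chromosome 1 from 134835275 and from 179377303 (-1.41 each; 0.0353 each). Without 6-week replicate 1 the same 3 changes were 0.05, -0.56 and -0.61, none of them passed. On chromosome 13 from 34166308 leaving out 6-week replicate 1 gave a change of 1.43 and leaving out 6-week replicate 2 one of 0.04, and on chromosome 1 from 179378618 it was 1.14 and 0.35, so which 6-week library is kept decides these values. Leaving out a 2-week replicate moved the change on chromosome 7 from 17533908 to 1.24 or 0.46. As for IP tags, calls made without a 6-week library may rest on too small a spread.

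**Figure D5:**
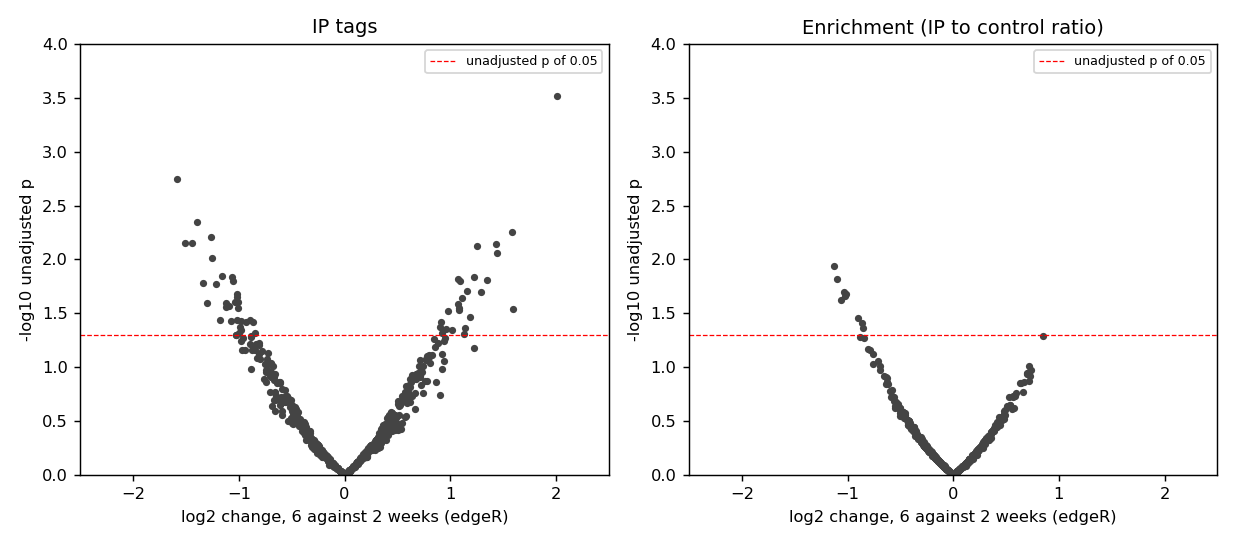
Log2 change between 6 and 2 weeks (x axis) against -log10 of the unadjusted p (y axis) in edgeR for the 619 members, for IP tags (left) and for the IP to control ratio (right). The dashed line marks an unadjusted p of 0.05, above which lie 56 and 9 members, none of which passed after adjustment.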

How the data were processed

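Peak lists of 4 m6A-IP libraries were used. The submitters' processing notes name Bowtie2 (2.2.3), HOMER, TopHat2 (2.0.13 and 2.1.1), Cufflinks (2.2.1) and build mm9, with no role or order. Per the file headers the lists come from HOMER's peak caller, with 1 list per library; its options, and which input library each control column holds, were not stated in the labels or headers. The deposited IP tags of 2-week replicate 1 are whole counts. The deposited signal of the other IP columns and of that list's control column is scaled by 1 constant per list, and dividing by it gave whole tags within 0.2 tag for 100% of peaks. A control of 0.5 tag stands for none. The authors' fold ratio describes peaks, and the deposited p-value, score and fraction of tags near the centre support no result.

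A region's value in a library is that of its peak with the most control tags; ties at the 5 percent limit were kept. Tests ran on all 10203 regions called in all 4 lists with edgeR 4.0.16, TMM and library totals. DESeq2 1.42.0, limma 3.58.1 (prior count 2), total tags, a minimum of 10 tags in 2 libraries, regions with 1 peak per list, a replicate block and left-out libraries were alternatives (R 4.3.3, Python 3.11.15). An SE is the log2 change over the root of the F statistic. The fits were tested on simulated data with 1 common dispersion per fit and changes planted in members. Of 100 members with a log2 change of 1, 7% passed an adjusted p of 0.05 for IP tags and 9% for enrichment. Of 100 with a log2 change of 2, 88% passed in either fit. False calls numbered 2 and 6. A change of 1 is therefore mostly missed, and a count of 0 does not show that members are unchanged. The simulated regions had no 3-fold minimum to meet, so the rates need not hold for the real regions. The real member with a change of 2.01 ± 0.42 in IP tags did not pass (edgeR adjusted p = 0.0799). Regions are named by rule: the 12 highest in control tags, the 5 at each end of median fold, of control differences without overlap and of each fit's p, and the 3 on either side of the limit; neighbours in the largest loci and the examples abundant at 1 age were named after their values were seen. Members and lists were chosen with earlier results of these data known.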

Additional observations from a re-analysis of the deposited data

How the results depend on the processing

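The number of members was 255 with the top 2 percent, 1284 with the top 10 percent and 181 among peaks at 6-fold or more, where fewer peaks enter by construction. Leaving out 1 list and asking for all 3 that remained gave 698 to 789. The other merging rules and the removal of chromosomes M and Y gave 587 to 619. For IP tags edgeR called 0 members, DESeq2 called 5, and edgeR called 1 with 1 peak in each list. With peak starts within 20 bp edgeR called 1 of 248 members (0.403%), against 20 of 2347 regions. With the replicate block it called 2 of 619 members (0.323%), 1 in each direction, against 342 of 10203 regions. The pairing is of numbers only, and the replicate differences of the ages correlated with r = 0.0186. Leaving out 1 library gave 0 to 69. For enrichment leaving out 1 library gave 0 to 10, and the replicate block and all other settings run gave 0. Of 108 values of named regions for IP tags under alternatives, 22 newly passed and 1 turned direction, at chr1:179377303-179377568 (0.11 with summed tags, where 1 peak enters at 2 weeks and 3 overlapping peaks at 6 weeks). Of 110 for enrichment 3 newly passed. The minimum of 10 tags removed no region. Peak starts within 20 bp, summed tags and TMM for the overlap of IP tags were chosen after seeing the data; the latter gave 275 members without overlap against 279. Every fit has 2 libraries per age or fewer, and the median SE of a member's log2 change was 0.42 for IP tags and 0.43 for enrichment.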
